A study of Mus musculus with 18 samples.

Results

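Small nucleolar RNAs and the genes that carry them were followed in mouse microglia through 3 ages and 2 brain regions. The members are the genes whose probe sets carry exactly 1 gene symbol and whose symbol begins with Snord, Snora, Scarna, Snhg or AF357, together with Taf1d and Ipw. They number 100 of the 22180 genes that the array table names with a single symbol, and each is read by its brightest probe set over the 18 arrays. By class they are 47 box C/D RNAs (Snord), 26 box H/ACA RNAs (Snora), 5 small Cajal body RNAs (Scarna), 15 host genes (14 Snhg genes and Taf1d) and 7 transcripts kept apart because they come from, or are named with, the imprinted clusters (Snhg14, Ipw and 5 with AF357 names). A further 49 probe sets pair a name of this kind with another symbol, so that Gas5, Snhg8, Snhg16 and the Snord116 copies have no reading of their own and are not analysed here.

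All arrays came from healthy, untreated C57Bl/6 mice under specific-pathogen-free housing, with no transgene or deletion in any group. Microglia were sorted as CD45-positive, CD11b-positive and Gr1-negative cells from cortex or corpus callosum at postnatal day 3 (P3), postnatal day 7 (P7) or in the adult, whose age in weeks is not given in the sources used here. Each of the 6 groups holds 3 arrays of amplified total RNA. Nothing in the labels tells the number of animals behind an array or whether 2 arrays are separate animals, so the p-values below measure the spread between these arrays, which may be technical, and their number limits the precision.

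Small nucleolar RNAs guide the chemical marking of other RNAs. Box C/D RNAs pair with ribosomal RNA and direct 2'-O-methylation by fibrillarin, box H/ACA RNAs direct pseudouridylation by dyskerin, and small Cajal body RNAs do the same for spliceosomal RNAs. In mammals most of them are cut out of the introns of a host gene, either a gene for a ribosomal or translation protein or a noncoding Snhg gene, whose spliced RNA often starts with a run of pyrimidines and is commonly degraded by nonsense-mediated decay. A few, among them Snord118 (U8) and Snord13 (U13), are transcribed from promoters of their own, and the clusters at Snhg14 and at Meg3 and Rian are imprinted and are best known from neurons.

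The start regions of 6 noncoding hosts whose level fell between P7 and adult in cortex are shown. They include the weaker calls of Snhg10 and Snhg12 and leave out Snhg4, Snhg6 and Taf1d, which also fell. Snhg4 and Taf1d were left out by choice. Each sequence runs 5′ to 3′ on the gene's strand from 50 bases before the annotated start to 50 bases after it, from RefSeq on build GRCm38.p6. Capitals mark TATAAA on either strand (TTTATA is its reverse complement), CACGTG, or a run of at least 7 bases that are all C or T and that reaches past the 10th base before the start. No marked stretch overlaps another.
Snhg1, chr19:8723437-8723536, plus strand: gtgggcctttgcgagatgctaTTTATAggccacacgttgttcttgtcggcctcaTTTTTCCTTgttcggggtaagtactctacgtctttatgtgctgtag
Snhg5, chr9:88522848-88522947, minus strand: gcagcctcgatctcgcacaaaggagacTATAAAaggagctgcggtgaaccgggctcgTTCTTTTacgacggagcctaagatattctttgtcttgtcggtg
Snhg12, chr4:132308628-132308727, plus strand: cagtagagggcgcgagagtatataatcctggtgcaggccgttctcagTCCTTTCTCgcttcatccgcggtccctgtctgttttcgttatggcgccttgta
Snhg10, chr12:105032230-105032329, minus strand: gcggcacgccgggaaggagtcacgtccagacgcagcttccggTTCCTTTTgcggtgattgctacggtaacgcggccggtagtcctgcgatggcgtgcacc
Snhg3, chr4:132353637-132353736, minus strand: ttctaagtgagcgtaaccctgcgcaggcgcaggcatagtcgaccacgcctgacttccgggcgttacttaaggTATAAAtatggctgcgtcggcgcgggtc
Snhg15, chr11:6528711-6528810, minus strand: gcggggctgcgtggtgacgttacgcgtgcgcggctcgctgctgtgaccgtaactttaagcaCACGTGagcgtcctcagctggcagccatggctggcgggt

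Snhg1, Snhg5, Snhg12 and Snhg10 hold a pyrimidine run near the annotated start. The run spans the start in Snhg12, lies just before it in Snhg10, and begins at base 5 in Snhg1 and base 8 in Snhg5. Snhg1 and Snhg5 also hold TATAAA before the start. Snhg3 holds TATAAA after the start, and Snhg15 holds CACGTG and neither of the others in the stretch shown. RefSeq had a promoter window of 300 bases, 250 before and 50 after the start, for 13 of the 15 hosts. A pyrimidine run near the start occurred in 7 of the 13 (53.8%), against 35.7% of the windows of 27025 genes. TATAAA on either strand occurred in 5 of the 13 (38.5%) against 14.2%, and CACGTG in 2 of the 13 (15.4%) against 7.24%. These are matches of letters in a window and were not tested.

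Values are deposited on a log2 scale, on which 1 unit is a doubling, and each probe set has its own sensitivity, so levels of different genes are not set against each other. Across the arrays the middle gene read between 5.73 and 5.84. The sorted cells carried high microglia markers on every array, the mean of the 6 measured of 7 (P2ry12, Tmem119, Cx3cr1 and others) lying between 10.5 and 11.5. The arrays read amplified total RNA, so a mature small RNA and the same letters inside an unspliced host transcript cannot be told apart. In sorted cells read in bulk, fewer cells of a type and less RNA per cell cannot be told apart either. A gene is said to have risen or fallen where its limma p-value, adjusted by Benjamini-Hochberg over all 22180 genes, is under 0.05.

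The question in the main comparison was what the members did as microglia passed from P7 to the adult. In cortex 21 of the 100 members fell and 1 rose, against 6.15% of all genes that fell and 4.05% that rose. Among genes whose mean signal is above the median, 11.6% fell. Hosts fell in 9 of 15 cases, with a median difference of -0.51 over the 15, while the 78 small RNAs outside the imprinted group fell in 12 cases and had a median of -0.15, beside 0.03 over all genes. In corpus callosum 11 members fell and 6 rose, against 10.7% and 6.56% of all genes and 20.1% lower among the genes above the median. Hosts there fell in 5 of 15 cases and rose in 1, with a median of -0.38, and the 78 small RNAs fell in 6 cases and rose in 5, with a median of 0.00. The members' share lower in callosum is thus close to that of all genes.

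**Figure D1:**
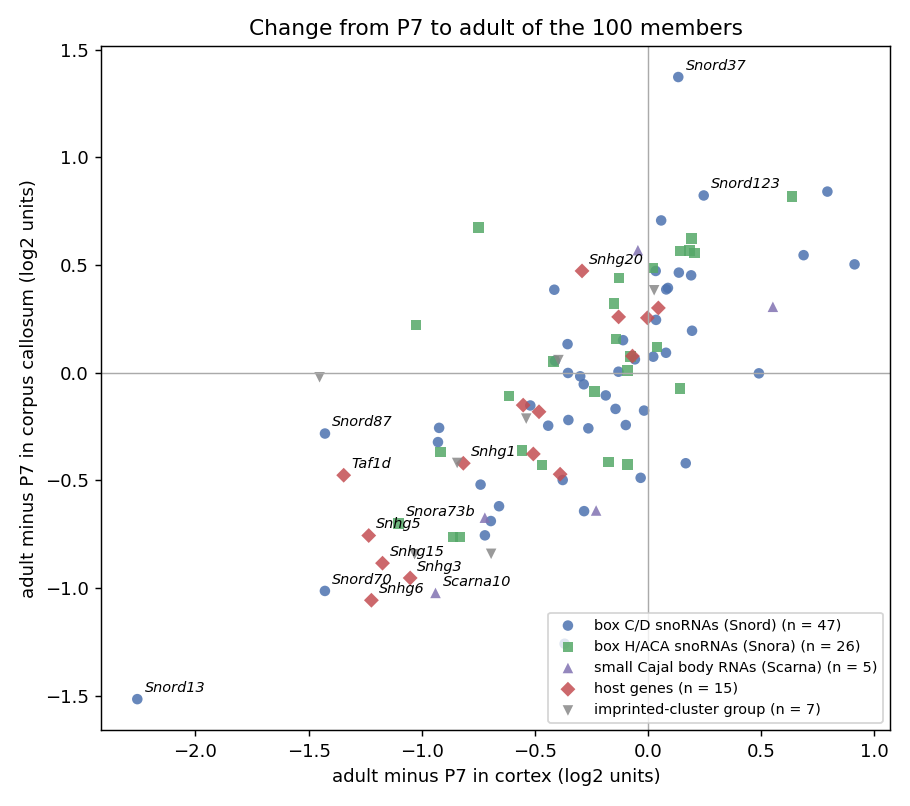
Difference between adult and P7 of each of the 100 members in cortex (horizontal axis) and corpus callosum (vertical axis), in log2 units, each point the difference of the means of 3 arrays, coloured by class. Most host genes lie in the lower left, with Snhg6 at -1.22 and -1.06, while the small RNAs spread around 0 in callosum.

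The 10 members that fell in both regions were Snhg1, Snhg3, Snhg5, Snhg6, Snhg15, Snora68, Snora73a, Snora73b, Snord22 and Scarna10. They make up 47.6% of the cortical and 90.9% of the callosal members that fell, and no member fell in one region and rose in the other. The same overlap over all genes was not counted, so these shares are not read as a trait of the members.

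Snhg6, a host whose intron holds Snord87, read 10.52, 10.62 and 10.59 in cortex at P7 and 9.53, 9.37 and 9.16 in the adult. The callosal arrays were at 10.47, 10.54 and 10.46 at P7 and 9.20, 9.51 and 9.58 in the adult. Every adult array lay below every P7 array in both regions. The difference was -1.22 ± 0.12 (SE, 3 arrays a group) in cortex, a 2.33-fold lower level, with a limma adjusted p of 1.55e-06. In callosum it was -1.06 ± 0.12 with an adjusted p of 7.21e-06.

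Snhg5, a noncoding host of box C/D RNAs, read 9.57, 9.68 and 9.64 at P7 and 8.18, 8.51 and 8.49 in the adult cortex. In callosum the arrays read 9.15, 9.39 and 9.41 at P7 and 8.77, 8.27 and 8.64 in the adult. The groups did not overlap in either region. The fall was -1.23 ± 0.14 in cortex (limma adjusted p 7.88e-06) and -0.76 ± 0.14 in callosum (0.0009).

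Snhg3, whose introns hold Snora73a and Snora73b, read 7.39, 7.68 and 7.81 at P7 and 6.65, 6.64 and 6.42 in the adult cortex. Its callosal readings were 7.55, 7.53 and 7.68 at P7 and 6.59, 6.48 and 6.83 in the adult. Again no adult array reached a P7 array of its region. The difference was -1.05 ± 0.14 in cortex (limma adjusted p 3.43e-05) and -0.95 ± 0.14 in callosum (6.79e-05).

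Snhg15, a noncoding host, read 6.65, 6.86 and 6.53 at P7 and 5.18, 5.72 and 5.62 in the adult cortex, against 6.22, 6.61 and 6.94 and then 5.75, 5.77 and 5.60 in callosum. All adult arrays were the lower ones. The difference was -1.17 ± 0.17 in cortex (limma adjusted p 0.000133) and -0.88 ± 0.17 in callosum (0.0013). Snhg3, Snhg5, Snhg6 and Snhg15 kept their calls in both regions whichever 1 of the 6 arrays compared was left out.

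Snhg1, the host of Snord22 and a series of other box C/D RNAs, read 9.85, 9.94 and 9.90 at P7 and 9.15, 9.03 and 9.06 in the adult cortex. In corpus callosum the level was 9.38, 9.60 and 9.68 at P7 and 9.04, 9.12 and 9.23 in the adult, so the callosal P7 arrays were the lower P7 arrays. The cortical difference of -0.82 ± 0.11 (limma adjusted p 6.26e-05) kept its call without any 1 array. The callosal difference of -0.42 ± 0.11 (0.014) lost it without callosal P7 array 2 (0.0557), P7 array 3 (0.0744) or adult array 1 (0.0588), and when arrays were quantile-normalized again (0.104).

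Taf1d encodes a subunit of the RNA polymerase I initiation factor SL1 and carries small nucleolar RNAs in its introns. It read 11.43, 11.73 and 11.79 at P7 and 10.27, 10.31 and 10.34 in the adult cortex, a tight adult group well below P7. In callosum it read 10.80, 11.48 and 11.40 at P7 and 10.48, 10.77 and 11.001 in the adult, and the groups overlapped. The cortical difference was -1.34 ± 0.19 with a limma adjusted p of 7.25e-05, and it kept the call without any 1 array. The callosal difference was -0.48 ± 0.19 and did not pass (0.0972).

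**Figure D2:**
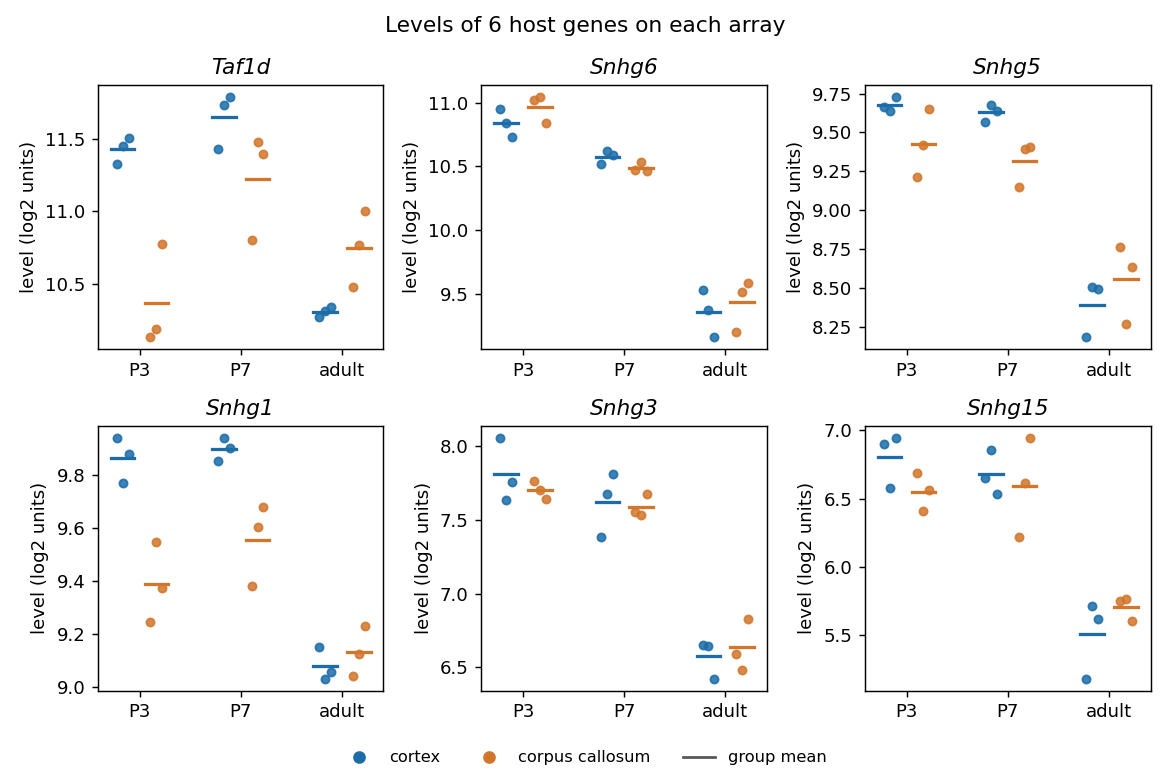
Level of 6 host genes on each array in log2 units (vertical axis, its range set per gene) at P3, P7 and in the adult, with cortex in blue and corpus callosum in orange and a bar at each group mean of 3 arrays. The adult arrays lie below the P7 arrays of the same region for every gene shown except Taf1d in callosum.

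The other hosts that fell in cortex did so by less. Snhg10 fell by 0.55 on the log2 scale (limma adjusted p 0.0424), Snhg4 by 0.51 (0.0248) and Snhg12, which holds Snora16a, Snora44, Snora61 and Snord99, by 0.48 (0.0341). Each of these calls was lost without any 1 of 5 cortical arrays: for Snhg10 any but adult array 3 (0.0747 to 0.181), for Snhg4 any but adult array 3 (0.0594 to 0.106), and for Snhg12 any but adult array 2 (0.0591 to 0.147). Snhg7, Snhg9, Snhg11, Snhg17 and Snhg18 did not pass in either region, with differences of -0.39 to 0.05 in cortex and -0.47 to 0.30 in callosum. Snhg11 has another probe set of nearly the same brightness (6.07 against 6.08). It read -0.646 in cortex and -0.385 in callosum, beside -0.003 and 0.255 on the one used.

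Snhg20 was the host that rose in callosum, where it read 7.12, 7.35 and 7.09 at P7 and 7.44, 7.73 and 7.80 in the adult. Its difference there was 0.47 ± 0.14 (limma adjusted p 0.0227), and -0.29 in cortex, where it did not pass (0.24). The callosal call was lost without P7 array 1 (0.0785) or 3 (0.09) or adult array 2 (0.0766) or 3 (0.0895). A test of the difference between the regions in this step, 0.76 ± 0.19, did not pass (0.18).

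Snora73a and Snora73b, which are the U17 RNAs needed for ribosomal RNA cleavage rather than for its modification, fell with their host. Snora73b read 6.73, 6.97 and 6.90 at P7 and 5.87, 5.64 and 5.78 in the adult cortex, and 6.48, 6.68 and 6.71 and then 6.06, 5.72 and 6.00 in callosum. The groups stayed apart in both regions. The difference was -1.10 ± 0.14 in cortex (limma adjusted p 1.86e-05) and -0.70 ± 0.14 in callosum (0.00124), and both calls held without any 1 array.

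Snora73a read 5.66, 6.41 and 6.60 at P7 and 5.27, 5.27 and 5.53 in the adult cortex, then 5.90, 6.38 and 6.31 and 5.50, 5.04 and 5.76 in callosum. The P7 arrays spread more widely than those of Snora73b. The differences of -0.86 ± 0.24 (limma adjusted p 0.0237) and -0.76 ± 0.24 (0.0325) depended on single arrays. The cortical call was lost without P7 array 2 or 3 or adult array 1 or 2 (0.0727 to 0.145), and the callosal call likewise without P7 array 2 or 3 or adult array 1 or 2 (0.0614 to 0.162).

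Snord22, a box C/D RNA of the Snhg1 introns, read 7.30, 7.24 and 7.48 at P7 and 6.52, 7.03 and 6.38 in the adult cortex. The callosal levels were 6.80, 7.26 and 7.15 at P7 and 6.32, 6.44 and 6.39 in the adult. No adult array overlapped P7. The difference was -0.69 ± 0.19 in each region (limma adjusted p 0.0193 in cortex, 0.0138 in callosum). The call was lost in cortex without P7 array 3 (0.0936) or adult array 1 (0.0714) or 3 (0.11), and in callosum without P7 array 2 (0.071) or 3 (0.0524).

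Snord87, inside Snhg6 and also inside the span of Mcmdc2, read 8.18, 7.66 and 7.72 at P7 and 5.97, 6.99 and 6.32 in the adult cortex. In callosum it read 7.26, 6.96 and 7.38 at P7 and 6.66, 6.93 and 7.17 in the adult, with overlap. The cortical fall of -1.43 ± 0.23 passed (limma adjusted p 0.00026), also without any 1 array, and the callosal difference of -0.28 ± 0.23 did not (0.453). The difference between the regions, 1.14 ± 0.32, did not pass its own test (0.254). Mcmdc2 itself did not pass in cortex (0.13 ± 0.18, limma adjusted p 0.78).

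Scarna10, a small Cajal body RNA inside the condensin gene Ncapd2, read 5.22, 5.71 and 6.16 at P7 and 5.01, 4.49 and 4.77 in the adult cortex, then 5.40, 5.87 and 5.71 and 4.77, 4.56 and 4.58 in callosum. The adult arrays were lower throughout. Its difference was -0.94 ± 0.23 in cortex (limma adjusted p 0.0119) and -1.02 ± 0.23 in callosum (0.00426). The cortical call was lost without P7 array 3 (0.0929) or adult array 2 (0.0683), and the callosal call held without any 1 array. In cortex Ncapd2 fell by 2.74 on the log2 scale (4.71e-09), and in callosum it fell by 2.29 (5.88e-08).

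Snora68, a box H/ACA RNA, fell by 0.83 ± 0.21 in cortex (limma adjusted p 0.014) and by 0.76 ± 0.21 in callosum (0.0166). The cortical call was lost without P7 array 2 or 3 or adult array 1 (0.0544 to 0.0799) and the callosal call without P7 array 3 (0.102) or adult array 1 (0.067). Snord70, a box C/D RNA inside the snoRNP protein gene Nop58, read 3.70, 4.07 and 3.94 at P7 and 2.44, 3.12 and 1.88 in the adult cortex. Its difference of -1.43 ± 0.40 (limma adjusted p 0.0277) came from values far below the middle gene. Its call was lost without P7 array 2 or 3 or adult array 1 or 3 (0.0716 to 0.145).

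The remaining small RNAs that fell in cortex were Snord52 (-0.93), Snord35b (-0.92), Snora41 (-0.92), Snora33 (-0.61) and Snord35a (-0.52), with limma adjusted p-values of 0.0117 to 0.0418. Every one of these 5 calls was lost without at least 1 array. Snord35a lost its call without any of the 6 cortical arrays (0.0696 to 0.109). Snora33 lost it without any but adult array 2 (0.0505 to 0.148), and its other probe set read 0.16 in place of -0.61. Snord52 lost it without P7 array 2 or 3 or adult array 1 or 3 (0.106 to 0.184), Snord35b without P7 array 1 (0.0783) or adult array 1 (0.0807), and Snora41 without P7 array 1 (0.0514) or adult array 1 (0.0715). In callosum Snord88c fell by 0.42 (0.0422), a call lost without any but adult array 2 (0.0897 to 0.131).

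No small RNA was called higher in both regions, and no member passed the test of a difference between the regions in this step. In cortex the 1 that rose was Snord49b, which read 7.42, 8.22 and 8.25 at P7 and 9.07, 8.65 and 8.90 in the adult. Its difference was 0.91 ± 0.25 (limma adjusted p 0.0222), and the call was lost without P7 array 1 (0.139) or adult array 1 (0.0879) or 3 (0.0667).

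In callosum 5 small RNAs rose. Snord123, a box C/D RNA inside Snhg18, read 4.66, 5.28 and 4.69 at P7 and 5.76, 5.84 and 5.51 in the adult, a difference of 0.82 ± 0.18 (limma adjusted p 0.00258) that held without any 1 array. Snord37, inside the elongation factor gene Eef2, read 3.65, 4.002 and 4.69 at P7 and 6.30, 4.99 and 5.17 in the adult. Its difference of 1.37 ± 0.38 (0.0161) lost its call without P7 array 1 (0.0856) or 2 (0.0544) or adult array 1 (0.102). Snora30 rose by 0.82 (0.00707; 0.051 without adult array 2), Snord49a by 0.71 (0.025) and Snora23 by 0.57 (0.018). The call of Snord49a was lost without P7 array 1 or 2 or adult array 1 (0.0979 to 0.125), and that of Snora23 without P7 array 1 (0.119) or adult array 1 (0.0828).

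Each small RNA was then set beside the gene whose RefSeq span holds it. The strand was not compared, since the reference table gives none for the small RNAs. This gave 69 pairs of 68 small RNAs with 53 enclosing genes, 12 of the pairs with a host among the members. Ipw, a long noncoding transcript inside Snhg14, is counted among the 68 in these counts, medians and errors. From P7 to adult in cortex the host fell in 36 pairs (27 genes), and the small RNA fell too in 9 of them and did not pass in 27. In callosum the host fell in 29 pairs (24 genes), the small RNA fell in 4, did not pass in 23 and rose in 2. Of all genes 6.15% fell in cortex and 10.7% in callosum, and of those above the median signal 11.6% and 20.1%. The median difference was -0.48 for the hosts and -0.15 for the small RNAs over the cortical pairs, and -0.38 and 0.00 over the callosal pairs.

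The small RNAs are also the less precise readings: the median SE of a difference was 0.26 for them and 0.14 for the hosts, so a change of the host's size would pass less readily. What the wider error contributes to the counts was not tested. In some pairs the differences were wide apart. Ncl, the nucleolar protein nucleolin, fell by 1.07 ± 0.11 in cortex (limma adjusted p 2.19e-06), while Snora75 and Snord82 inside it differed by -0.15 ± 0.30 and -0.02 ± 0.32. Rpsa, a protein of the small ribosomal subunit, fell by 1.30 ± 0.19 in cortex (0.00013) beside 0.02 ± 0.25 for Snora62 inside it. Nop58 fell by 1.03 ± 0.14 in cortex (3.75e-05) beside -0.35 ± 0.17 for Snord11 inside it. Snord70, also inside Nop58, fell by more than its host, at -1.43 (limma adjusted p 0.0277). The RNAs inside Snhg12 lay at -0.24 (Snora16a), -0.42 (Snora44), -0.09 (Snora61) and -0.28 (Snord99) in cortex, none past the test.

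The small RNAs that rose with a falling host were Snord37, at 1.37 against -0.70 ± 0.12 for Eef2 (limma adjusted p 0.000449), and Snora23, at 0.57 against -0.46 ± 0.11 for Ipo7 (0.00582), both in callosum. Neither Snord37 (0.13) nor Snora23 (0.18) passed in cortex, where Eef2 fell by 0.67 and Ipo7 by 0.45. As given above, the rise of each in callosum rested on single arrays. No test of the difference between a small RNA and its host was made.

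**Figure D3:**
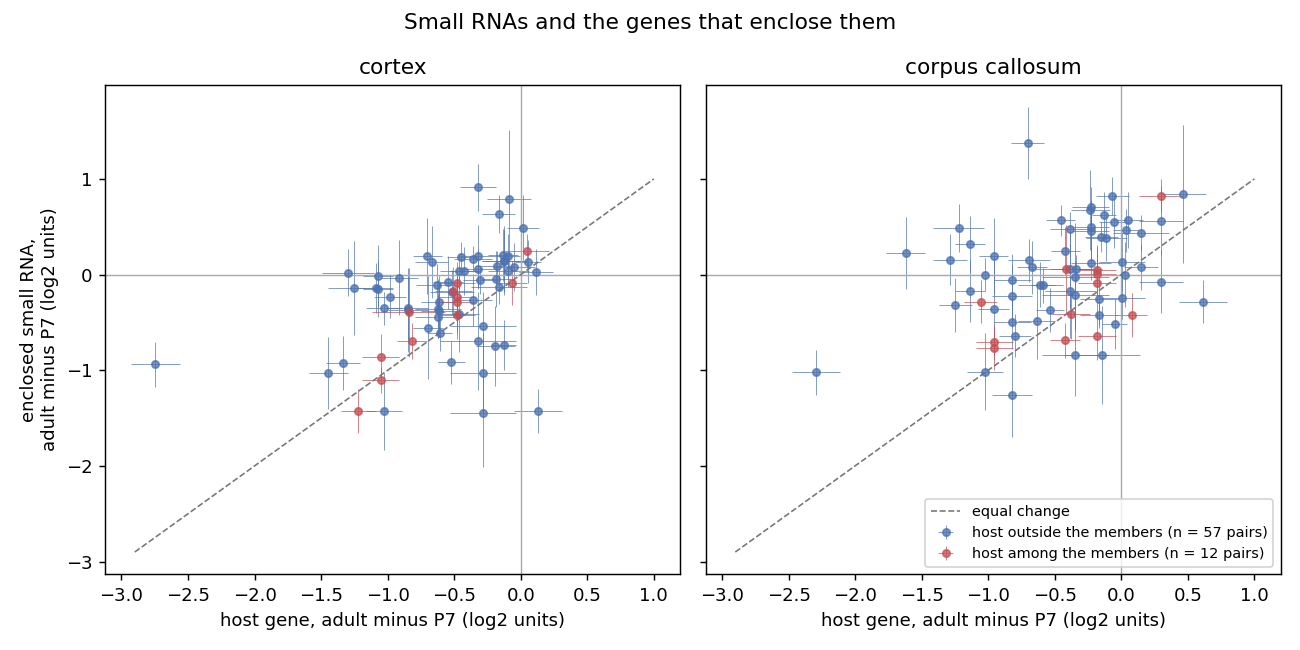
Difference between adult and P7 of the enclosing gene (horizontal axis) and of the small RNA inside it (vertical axis) in log2 units for 69 pairs in cortex and corpus callosum, with bars of 1 SE and a dashed line of equal change. Most hosts lie left of 0 while most small RNAs lie above the dashed line, with Ncapd2 and Scarna10 farthest left. Ipw, a long noncoding transcript inside Snhg14, is plotted among the small RNAs.

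Of the 9 core snoRNP proteins on a list 7 were measured, and 5 of the 7 fell in cortex and 7 of the 7 in callosum between P7 and adult, with medians of -0.60 and -0.64. Of all genes 6.15% fell in cortex and 10.7% in callosum, and of those above the median signal 11.6% and 20.1%; the counts of the lists that follow are read against these shares. Nhp2, an H/ACA core protein, fell by 1.33 ± 0.17 (limma adjusted p 2e-05) in cortex and 1.39 ± 0.17 (7.98e-06) in callosum. Nop58 and Nop56, the paired scaffold proteins of box C/D particles, fell by 1.03 and 0.91 in cortex and by 1.03 and 0.63 in callosum. On every adult array the mean of the list was below that of every P7 array, at 7.28 to 7.55 against 8.01 to 8.26.

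Of 14 measured assembly factors (15 listed) 1 fell in cortex, Znhit6 (-0.42), and 6 fell in callosum, led by the nucleolar chaperone Nolc1 (-0.80), Shq1 (-0.72) and the ATPase Ruvbl1 (-0.68). Of 12 genes of RNA polymerase I and its initiation factors Polr1a fell in both regions (-0.57 in cortex, -0.60 in callosum) and Polr1d in callosum (-0.72). Of 7 measured genes of nonsense-mediated decay (10 listed) Upf2 fell in cortex (-0.47), and in callosum Smg5 fell (-0.51) and the kinase Smg1 rose (0.42). Of 24 measured protein-coding hosts (32 listed), mostly ribosomal proteins, 15 fell in each region and none rose, with Rpl32 at -1.45 and -1.62. The cortical counts of 1 of 14 assembly factors, 1 of 12 polymerase genes and 1 of 7 decay genes, and the callosal counts of 2 of 12 and 1 of 7, are near the shares of all genes that fell. These lists were drawn up with earlier results of the same arrays known.

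Markers of other cells also differed between these arrays. Of 5 markers of border-associated macrophages Mrc1, Folr2 and Pf4 fell in both regions, Mrc1 by 4.23 in cortex and 4.44 in callosum, and the mean of the list ranged from 7.01 to 7.53 on P7 arrays and from 5.51 to 5.76 on adult arrays. Of 6 microglia markers 3 rose in cortex and 4 in callosum, with Tmem119 at 1.03 and 1.56. Of 12 neuron markers Stmn2, Tubb3 and Gap43 fell in cortex and none passed in callosum. Slc1a3 rose in both regions and Aqp4 in cortex among 5 astrocyte markers, Pecam1 rose in cortex among 6 endothelial and mural markers, and Mbp fell in callosum among 4 measured oligodendrocyte markers. None of 4 oligodendrocyte precursor and 5 neutrophil markers passed limma's test, where 0 of each had an unadjusted p under 0.05. The part of these cells in the members' changes was not tested.

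Between P3 and P7 the members that changed were mainly the imprinted transcripts and Snord118. The P3 arrays carry another prefix in their descriptions than the P7 and adult arrays, so age and array set cannot be told apart in this step. In cortex 3 members fell, against 0.604% of all genes, and 1 rose, against 0.28%. In callosum 2 fell and 2 rose, against 0.415% and 0.325%.

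Snhg14, the long host transcript of the imprinted Prader-Willi region, read 6.17, 5.61 and 5.52 at P3 and 4.18, 4.18 and 3.94 at P7 in cortex. In callosum it read 5.20, 5.585 and 4.52 at P3 and 3.21, 3.53 and 3.98 at P7. Every P7 array was below every P3 array. The P7 values lay far below the middle gene, which read between 5.73 and 5.84 across the arrays. The fall was -1.66 ± 0.27 in cortex (limma adjusted p 0.00508), held without any 1 array, and -1.53 ± 0.27 in callosum (0.0172), lost without P3 array 1 (0.0652) or 2 (0.0634) or P7 array 1 (0.065) or 2 (0.073). The callosal call was also lost when only the groups compared were fitted (limma adjusted p 0.124).

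Ipw, a noncoding transcript inside Snhg14, read 7.56, 7.61 and 6.97 at P3 and 5.90, 5.04 and 4.45 at P7 in cortex, a difference of -2.25 ± 0.46 (limma adjusted p 0.0255). In callosum it read 6.58, 7.03 and 4.60 at P3 and 4.92, 4.64 and 5.45 at P7, where P3 array 3 lay as low as P7 and the difference of -1.07 ± 0.46 did not pass (0.303). The cortical call was lost without P3 array 1 or 2 or P7 array 2 or 3 (0.0949 to 0.137), and with a trended robust prior (0.0635).

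AF357425, a small nucleolar RNA inside the maternally expressed gene Rian, read 8.49, 7.50 and 7.59 at P3 and 6.90, 5.02 and 5.27 at P7 in cortex. The groups did not overlap, and the difference was -2.13 ± 0.42 (limma adjusted p 0.0204), lost without P3 array 1 (0.118) or P7 array 2 (0.137) or 3 (0.116). The call of AF357425 was also lost when only the groups compared were fitted (limma adjusted p 0.0688). In callosum its difference of -1.62 ± 0.42 did not pass (0.0793). Its adult arrays read 4.48 to 4.87 in cortex and 4.04 to 4.92 in callosum. AF357355 and AF357426, also inside Rian, AF357341 and AF357399 did not pass in either region, the lowest adjusted p being that of AF357355 in callosum (-2.17 ± 0.56, limma adjusted p 0.0762). AF357399 lies inside the ribosomal protein gene Rps16 on chromosome 7 and not in an imprinted cluster. Of 8 other measured genes of the imprinted clusters (12 listed) Meg3 (-1.83 ± 0.21, limma adjusted p 0.000367) and Rian (-1.70 ± 0.25, 0.00242) fell in cortex and none passed in callosum.

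Neuron markers were read on the same arrays. The mean of the 12 read 6.25, 5.93 and 6.04 on the cortical and 5.97, 5.88 and 5.57 on the callosal P3 arrays, 5.57 to 5.76 on P7 arrays and 5.30 to 5.57 on adult arrays. The callosal P3 array with the lowest mean, array 3, also had the lowest Snhg14, Ipw and AF357425 of the 6 P3 arrays. Between P3 and P7 Gap43 (-1.12) and Map2 (-0.86), 2 of the 12 markers, fell in cortex, and Map2 (-0.98), 1 of the 12, fell in callosum. The part of neuronal RNA in these values was not tested.

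**Figure D4:**
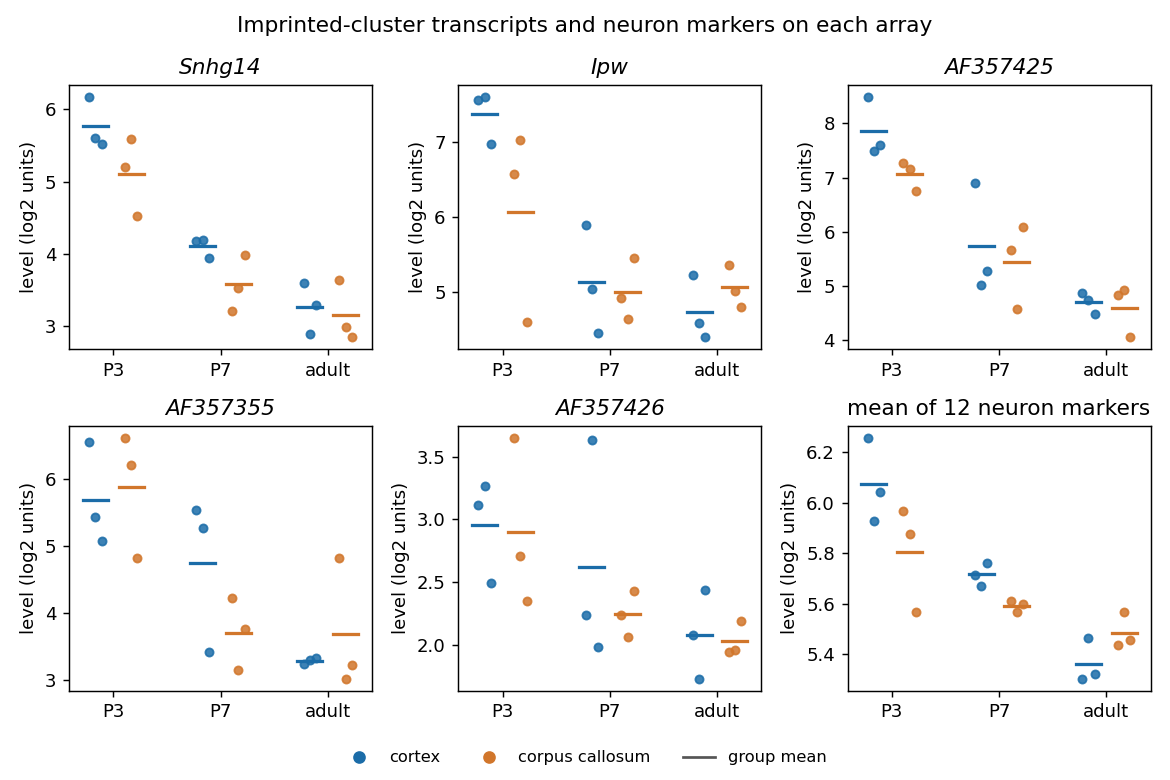
Level of 5 transcripts of the imprinted clusters and the mean of 12 neuron markers on each array in log2 units (vertical axis, its range set per panel) by age, cortex in blue and corpus callosum in orange, with a bar at each group mean of 3 arrays. Cortical P3 arrays are the highest group for Snhg14, Ipw, AF357425 and the neuron markers, whose mean reaches 6.25 there.

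Snord118, the U8 RNA that acts in the processing of the large-subunit ribosomal RNAs, has a gene of its own and lies in no other RefSeq gene. It read 7.78, 7.72 and 7.74 at P3 and 8.67, 10.15 and 10.29 at P7 in cortex, and 6.49, 7.37 and 8.04 and then 8.96, 9.77 and 10.23 in callosum. All P7 arrays were above all P3 arrays, with P7 array 1 the lowest of its group in both regions. The difference was 1.96 ± 0.44 in cortex (limma adjusted p 0.0428) and 2.36 ± 0.44 in callosum (0.0216). The cortical call was lost without any 1 array but P7 array 1 (0.0859 to 0.2), under renewed quantile normalization (0.0502) and with a trended robust prior (0.0981). The callosal call was lost without P3 array 1 or 2 or P7 array 2 or 3 (0.0546 to 0.114), and when only the groups compared were fitted (0.123). Snord13, another RNA with its own promoter, read 7.13, 10.19 and 10.16 at P7 in cortex. Its difference from P3 of 2.08 ± 0.73 did not pass (limma adjusted p 0.216).

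The other changes in callosum concerned 2 hosts. Snhg20 read 8.24, 8.05 and 8.01 at P3 and 7.12, 7.35 and 7.09 at P7, a fall of -0.92 ± 0.14 (limma adjusted p 0.0084). The call was lost without P7 array 3 (0.054) and when only the groups compared were fitted (0.105). Taf1d rose by 0.86 ± 0.19 (0.0432) on its brightest probe set, but the mean of its 11 probe sets differed by -0.04 (0.924). Its call was lost without P3 array 1 (0.147) or 2 (0.129) or P7 array 2 (0.15) or 3 (0.174), and when only the groups compared were fitted (0.228). Without callosal P3 array 3, 16 members were called in this step in place of 4.

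The regions themselves were compared at each age. At P3 1 member was lower in callosum than in cortex, Taf1d, against 0.153% of all genes, and none was higher, against 0.352%. An unadjusted p under 0.05 was reached by 21 of 100 members, beside 12.8% of all genes. At P7 limma called no member and at the unadjusted level 8, beside 6.88% of all genes, where 0.451% of all genes were called. In the adult it called no member and at the unadjusted level 12, beside 8.51% of all genes. Of all genes 1 was called there (0.00451%).

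Of the host differences between callosum and cortex 12 of 15 were below 0 at P3 (median -0.13) and 14 of 15 at P7 (median -0.09), and 14 of 15 were above 0 in the adult (median 0.13). Over all genes the medians were 0.01, 0.00 and 0.01. Apart from Taf1d at P3 none of these host differences passed the test. The next lowest adjusted p at P3 was that of Snhg1, at -0.47 ± 0.11 (0.0719). Markers of other cells differed between the same arrays: at P3 Gap43, 1 of 12 neuron markers, was lower in callosum (-1.27, limma adjusted p 0.00406), and Folr2, 1 of 5 markers of border-associated macrophages, was higher at P3 (1.63, 0.00187) and at P7 (1.95, 9.05e-05). Of the 8 other genes of the imprinted clusters Meg3 (-1.32, limma adjusted p 0.0074) and Magel2 (-0.53, 0.0482) were lower in callosum at P3. The part of these cells in the members' regional differences was not tested.

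Taf1d read 11.33, 11.45 and 11.50 in cortex and 10.13, 10.19 and 10.77 in callosum at P3. Every callosal array was below every cortical one, by -1.06 ± 0.19 on average (limma adjusted p 0.0137), a 2.09-fold lower level. At P7 the difference was -0.43 ± 0.19 and in the adult 0.44 ± 0.19, neither past the test (0.666 and 0.554). The P3 call was lost without cortical array 2 (0.0668) or 3 (0.0542) or callosal array 1 (0.0617), when only the groups compared were fitted (0.124) and when its probe sets were averaged (-0.52, limma adjusted p 0.0686).

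The change of the regional difference from P3 to the adult was tested directly and was 1.51 ± 0.27 for Taf1d (limma adjusted p 0.0351). It was the only member called, against 0.0586% of all genes called in that direction. At the unadjusted level 28 of 100 members passed, beside 13.7% of all genes. From P3 to P7 limma called no member, at the unadjusted level 6 (5.68% of all genes), and 0.0% of all genes. From P7 to adult it called no member, at the unadjusted level 12 (7.34% of all genes), where 0.203% of all genes were called. The Taf1d call was lost without any 1 of 9 of the 12 arrays of this step, with adjusted p-values from 0.0627 to 0.0899, those 9 being all but callosal P3 array 3, cortical adult array 1 and callosal adult array 3. With its probe sets averaged the change was 0.67 (limma adjusted p 0.1).

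The 11 probe sets of Taf1d, of which 2 hold the same values, were set side by side. At P3 all 11 were lower in callosum, by -1.06 to -0.07, and at P7 all 11, by -0.59 to -0.02. In the adult 9 of the 11 were higher in callosum, the range being -0.53 to 0.64. The direction at each age was thus shared by most readings of the gene, and the brightest one gave the largest difference at P3. The median over the 11 was -0.49 at P3 and 0.19 in the adult. The calls of Taf1d given above rest on the brightest one. Which probe sets read its exons and which a small RNA in an intron was not determined. The probe sets read one RNA preparation per array and are not replicates.

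**Figure D5:**
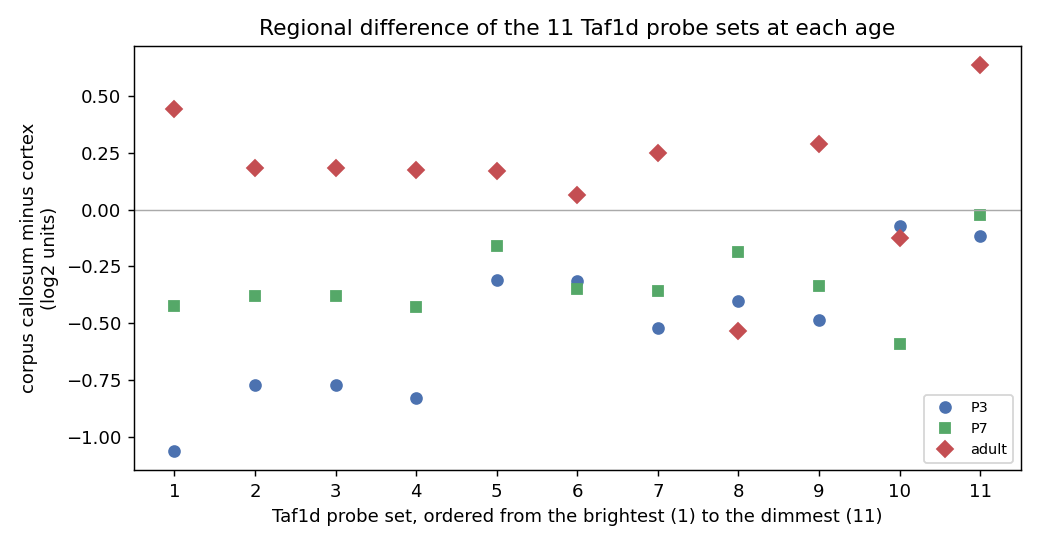
Corpus callosum minus cortex in log2 units (vertical axis) for the 11 Taf1d probe sets, ordered along the horizontal axis from the brightest to the dimmest over 18 arrays, at P3 (circles), P7 (squares) and in the adult (diamonds), each point a difference of means of 3 arrays. All P3 and P7 points lie below 0 and 9 of the 11 adult points above it.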

How the data were processed

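The authors deposited log2 values per probe set for 18 arrays, made with RMA per the submitters' processing notes. Neither a version of RMA nor a genome build for the array annotation was stated there. Of 41345 probe sets 23521 carry 1 gene symbol in the platform annotation and 1814 several, which were left out; the brightest probe set per symbol left 22180 genes. One linear model with a mean for each of the 6 groups was fitted to all arrays (limma 3.58.1, R 4.3.3, eBayes without trend, 12 residual degrees of freedom), and p-values were two-sided, adjusted over all genes and called at 0.05. The script was tested on simulated data. The members and all gene lists were chosen with earlier results of these data known. Named are up to 10 called members per direction and comparison, a panel of hosts and imprinted transcripts, small RNAs or hosts of a named pair, and up to 3 called genes per list; any other name was chosen after its values were seen, as was the shortest pyrimidine run. RefSeq supplied the spans (99 members matched by identifier, 100 with symbol) and promoters. Alternatives were a renewed quantile normalization, only genes above the median, a trended robust prior, only the groups compared, the mean of a gene's probe sets, a replicate block, both adult arrays numbered 1 left out, and each array left out. Arrays with one replicate number in both regions correlated in their deviations at 0.02 to 0.30 over 9 pairs, 4 of them over 0.1. Arrays with unlike numbers at one age lay between -0.31 and 0.20. The labels do not say whether like numbers share a preparation, and the main model does not pair them.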

Additional observations from a re-analysis of the deposited data

Results flagged for a closer look

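The regional difference of Taf1d, corpus callosum minus cortex, was -1.06 at P3 and 0.44 in the adult (the latter not past its own test, 0.554), and the change of 1.51 (log2 units, limma adjusted p 0.0351) passed the test of the difference between ages. The call was lost without any 1 of 9 of the 12 arrays (limma adjusted p 0.0627 to 0.0899). With the probe sets of the gene averaged the change was 0.67 (0.1) and the P3 difference -0.52 (0.0686). Whether the brightest probe set reads an exon or a small RNA in an intron was not determined. The P3 and adult arrays carry different label prefixes, but both regions at each age share theirs.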

How the results depend on the processing

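Of 22 members called between P7 and adult in cortex 8 kept the call whichever array was left out, of 17 in callosum 7, of 4 between P3 and P7 in cortex 1, and none of the other calls; 1 value changed sign, Taf1d between P3 and P7 in callosum (-0.039 with the mean of its probe sets). With 1 array left out, counts of called members ran from 11 to 17 (main 22) and 11 to 19 (main 17) between P7 and adult in cortex and callosum, from 1 to 5 and 1 to 16 (main 4 each) between P3 and P7, from 0 to 3 (main 1) for the regions at P3, from 0 to 1 (main 1) for the regional difference from P3 to adult, and stayed at 0 for the other 4 comparisons. For the regions at P3 the count was 4 among genes above the median, 2 with a trended robust prior, 0 with only the groups compared, 0 with averaged probe sets and 2 without both adult arrays numbered 1. Without those 2 arrays it was 14 between P7 and adult in cortex. Between P3 and P7 it was 2 in cortex among genes above the median and 2 with the trended prior, and in callosum 10 among genes above the median and 0 with only the groups compared. For the regional difference from P3 to adult it was 2 among genes above the median and 0 with only the groups compared, with averaged probe sets or without both adult arrays numbered 1. The cause of these shifts was not tested, apart from the fewer genes or arrays that some settings hold.

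Whether arrays with one replicate number share a preparation is not known, and the main model does not pair them. With a replicate block the counts were 4 for the regions at P3, 23 and 19 between P7 and adult in cortex and callosum, 4 and 9 between P3 and P7, and 2 for the regional difference from P3 to adult. Differences of the 68 enclosed RNAs, the long transcript Ipw among them, had a median SE of 0.26 against 0.14 for the enclosing genes.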
